A study of Mus musculus with 8 samples.

Results

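The genes described here are 10 genes of the airway goblet cell, chosen by name: the gel-forming mucins Muc5ac and Muc5b, the membrane mucins Muc4 and Muc1, the secreted products Clca1, Agr2 and Tff2, and the transcription factors Spdef, Foxa2 and Foxa3. All 10 were found by their Entrez identifiers among the 23469 genes of the count table. They were measured by RNA-Seq in lungs of C57BL/6 mice, either wild type (WT) or DDAH1-transgenic (TG). The latter overexpress dimethylarginine dimethylaminohydrolase 1, the enzyme that breaks down ADMA, an inhibitor of nitric oxide synthases. Mice received house dust mite extract (HDM, from Dermatophagoides pteronyssinus) at a dose of 100 µg, or PBS without it, in a volume of 50 µl into the trachea 3 times per week for 3 weeks, and lungs were taken 24 h after the last challenge. The authors state that airway responses to methacholine were measured at that time, and that blood, bronchoalveolar lavage samples and lungs were collected afterwards. Lung RNA from the 4 mice within a group was mixed before 2 libraries were made from the mixture. The 4 groups (WT with PBS, WT with HDM, TG with PBS, TG with HDM) thus hold 2 libraries each, and all SDs and p-values below cover technical spread between libraries of 1 pool, and not the spread between mice. The promoter that drives the transgene and the age and sex of the mice are not given in the sources used here.

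Goblet cells make the mucus of the airway. Gel-forming mucins are very large, heavily O-glycosylated proteins that are packed into granules and secreted; in mouse airways MUC5B is the mucin of the resting airway and MUC5AC is the one induced by allergens. Interleukin-13 acts through STAT6 on airway epithelial cells, where SPDEF and FOXA3 favour the goblet cell program and FOXA2 restrains it. In bulk lung RNA, fewer cells of a type and less RNA per cell cannot be told apart.

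The members differ widely in length, which matters below. On GRCm38, Muc5ac (chr7:141788958-141819227, plus strand, 50 exons in the transcript used) and Muc5b (chr7:141839059-141873089, plus strand, 49 exons) are neighbours on chromosome 7. Muc4 lies on chromosome 16 (chr16:32735886-32782391, plus strand, 27 exons), Muc1 (chr3:89229056-89233381, plus strand, 7 exons) and Clca1 (chr3:145004537-145032776, minus strand, 14 exons) on chromosome 3, Agr2 on chromosome 12 (chr12:35992925-36004081, plus strand, 8 exons), and Tff2 (chr17:31141062-31144282, minus strand, 4 exons) and Spdef (chr17:27714446-27731003, minus strand, 6 exons) on chromosome 17. Foxa2 lies on chromosome 2 (chr2:148042877-148046969, minus strand, 3 exons) and Foxa3 on chromosome 7 (chr7:19013283-19023539, minus strand, 2 exons). The transcripts used here measure 14964 bases for Muc5b, 11277 for Muc4, 8256 for Muc5ac and 3655 for Clca1, against 784 for Agr2 and 584 for Tff2.

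The mucin domains are encoded by repeated sequence, and a read that lies within a repeat can align to several places of the same gene. The most repeated stretches of 24 bases in the coding sequence of 3 mucins show what these repeats look like. They are given 5′ to 3′, with no capitals because no base is singled out.
Muc5b: accacctgccaaccccaatgtcag
Muc4: cagctcagctccaagtacaacaca
Muc1: cctccaggggactccaccagctct
The Muc5b stretch occurs 6 times, all in exon 31, first at chr7:141858017-141858040. The Muc4 stretch occurs 10 times, first in exon 2 at chr16:32750540-32750563 and last in exon 4. The Muc1 stretch occurs 2 times in exon 2, first at chr3:89230027-89230050. No stretch of 24 bases occurs more than 1 time in the coding sequence of the Muc5ac transcript used. A longer Muc5ac transcript of 10752 bases was not searched. Values per coding kilobase below use the 8253 coding bases of the transcript used. Of all stretches of 50 bases, the length of a read, 21.9% in Muc5b, 10.1% in Muc4 and 1.28% in Muc1 recur within the same transcript, and none do in the 7 other members. Muc4 overlaps Muc20, which is encoded on the opposite strand, and shares 2.12% of its stretches with it; because no use of strand is stated for the counting, reads in the overlap cannot be told apart.

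The windows of 250 bases before the RefSeq start sites (GRCm38.p6) were on hand for 6 members, namely Muc4, Muc1, Agr2, Spdef, Foxa2 and Foxa3. The sequences of Muc4, Agr2 and Spdef are shown. Muc4 and Agr2 were called higher with HDM in both genotypes, and Spdef encodes a factor that acts on mucous genes. The Agr2 calls, and the Muc4 call in TG, were lost in some other settings, as given below. Capitals mark the single match to the motifs searched.
Muc4, chr16:32735636-32735885, plus strand: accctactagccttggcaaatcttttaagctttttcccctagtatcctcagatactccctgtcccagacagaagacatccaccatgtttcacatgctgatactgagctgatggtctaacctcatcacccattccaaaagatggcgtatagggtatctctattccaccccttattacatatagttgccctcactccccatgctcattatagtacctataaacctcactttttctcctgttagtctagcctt
Agr2, chr12:35992675-35992924, plus strand: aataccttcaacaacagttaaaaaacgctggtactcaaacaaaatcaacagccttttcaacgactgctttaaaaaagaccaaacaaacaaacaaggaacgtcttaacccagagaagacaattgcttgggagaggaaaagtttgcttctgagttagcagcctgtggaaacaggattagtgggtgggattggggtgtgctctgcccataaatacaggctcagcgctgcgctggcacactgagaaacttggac
Spdef, chr17:27728952-27729201, minus strand: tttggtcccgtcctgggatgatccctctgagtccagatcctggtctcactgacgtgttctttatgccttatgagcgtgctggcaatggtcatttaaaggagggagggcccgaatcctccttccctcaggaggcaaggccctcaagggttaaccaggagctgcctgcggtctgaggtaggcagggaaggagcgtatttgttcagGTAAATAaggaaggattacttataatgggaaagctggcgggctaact
On both strands of each window, 4 motifs were searched: the forkhead core TGTTTAC, its variant TATTTAC, the spacing of STAT6 sites TTCNNNNGAA and the SPDEF core CCGGAT. They occur in 3.17%, 2.73%, 5.85% and 4.94% of the 32851 promoter windows of all genes, and the letters of one forkhead motif cannot be those of the other. The match was TATTTAC on the reverse strand, read as GTAAATA in the Spdef sequence, 47 to 41 bases before the start. This start lies inside the Spdef interval given above, so that the window is not upstream of the whole gene. No other window of these members, including all 3 of Foxa2, held one of these motifs.

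Libraries held between 5694928 (TG with HDM, replicate 1) and 11929374 counts (WT with PBS, replicate 2). Of these, ribosomal Rn45S took 15.0% and 14.8% in WT with PBS and 16.7% and 21.5% in WT with HDM. In TG it took 21.4% and 21.8% with PBS and 8.58% and 9.37% with HDM. Ddah1 itself did not pass the test between genotypes, with a log2 fold change (TG over WT) of 0.66 in PBS (adjusted p = 0.358, edgeR) and -0.32 under HDM (adjusted p = 0.637). Xist, transcribed from the inactive X chromosome, lay at 11.3 to 20.8 CPM, the reads of a gene scaled to a common library size, in all PBS libraries and at 2051 to 3028 CPM in all HDM libraries, while Y-linked Ddx3y lay at 58.7 to 68.9 CPM with PBS and was counted 2 or 3 times per library with HDM. HDM against PBS therefore cannot be told apart from the sex of the mice in either genotype. Genotype comparisons within a treatment are not crossed with sex. The interaction of genotype and HDM, however, cannot be told apart from one of genotype and sex.

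The gel-forming mucins build the mucus gel (the plot of CPM by library). Muc5ac stood at 6.11 and 8.66 CPM in WT with PBS, 261 and 309 in WT with HDM, 10.9 and 15.2 in TG with PBS, and 118 and 121 in TG with HDM. All HDM libraries lay above all PBS libraries, and WT with HDM lay above TG with HDM. Muc5b stood at 752 and 730 CPM in WT with PBS, 2281 and 2285 in WT with HDM, 536 and 583 in TG with PBS, and 1110 and 1402 in TG with HDM. Per kilobase of coding sequence, the mean level of Muc5ac against that of Muc5b was 0.895 against 51.5 CPM in WT with PBS and 34.6 against 159 CPM in WT with HDM. Muc5b was thus the higher of the pair per coding kilobase in every library.

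**Figure D1:**
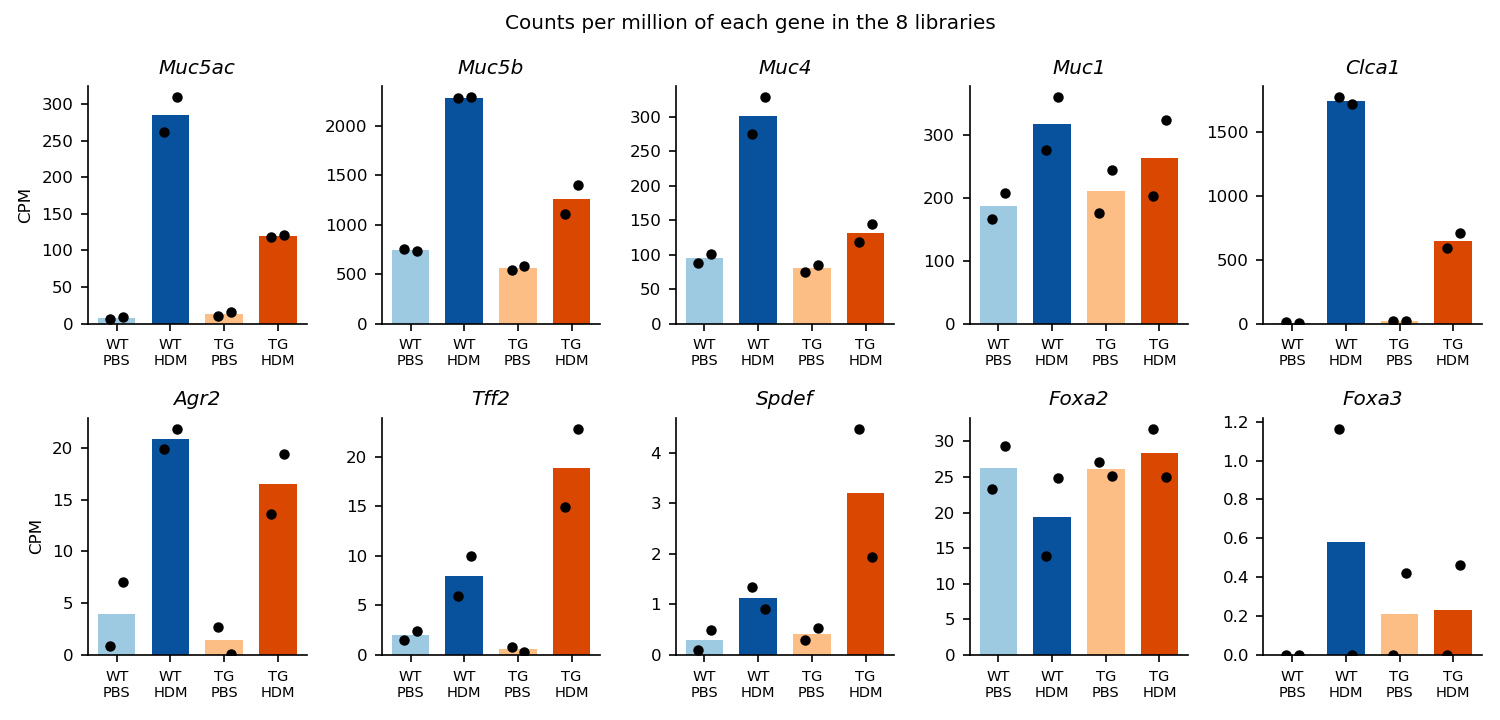
CPM of each gene (y axis, linear, its own range in each panel) in WT and TG mice with PBS or HDM. Bars are the means of 2 libraries of 1 pool and dots are the libraries; the HDM bars of Muc5ac, Muc5b, Muc4 and Clca1 are higher in WT than in TG, and those of Tff2 are at 7.93 in WT and 18.9 in TG.

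The membrane mucins tether mucus to the cell surface and also signal. Muc4 stood at 88.0 and 101 CPM in WT with PBS, 275 and 329 in WT with HDM, 75.2 and 85.4 in TG with PBS, and 119 and 144 in TG with HDM. The 4 groups kept the order of Muc5b, and no 2 of them overlapped. Muc1 stood at 166 and 208 CPM in WT with PBS, 276 and 359 in WT with HDM, 176 and 244 in TG with PBS, and 203 and 323 in TG with HDM. Its values overlapped between WT and TG under both treatments.

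Clca1 encodes a secreted metalloprotease of goblet cells that acts on mucus structure. It stood at 8.02 and 3.35 CPM in WT with PBS, 1768 and 1717 in WT with HDM, 18.2 and 21.1 in TG with PBS, and 587 and 710 in TG with HDM. Per coding kilobase it rose from 2.07 ± 1.20 CPM (SD, n = 2) to 636 ± 13.3 in WT, and from 7.18 ± 0.746 to 237 ± 31.8 in TG, and was the highest of the 10 members in both HDM groups.

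Agr2, a protein disulfide isomerase of the endoplasmic reticulum that mucins need for their folding, and Tff2, a trefoil peptide released with mucus, were low. Agr2 had 9 and 86 counts in WT with PBS, 222 and 217 in WT with HDM, 27 and 1 in TG with PBS, and 91 and 250 in TG with HDM. The PBS pairs differed widely between 2 libraries of 1 pool (0.902 and 7.03 CPM in WT). Tff2 had 15 and 30 counts in WT with PBS, 66 and 99 in WT with HDM, 8 and 3 in TG with PBS, and 100 and 294 in TG with HDM. In CPM, both TG libraries with HDM (14.9 and 22.8) lay above both WT libraries with HDM (5.91 and 9.96), which is the reverse of the order of Muc5ac and Clca1.

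Apart from Foxa2, the transcription factors were within a few CPM of the detection floor of 3 counts per library (0.233 to 0.447 CPM). Spdef, an ETS factor, had 1 and 6 counts in WT with PBS, 15 and 9 in WT with HDM, 3 and 5 in TG with PBS, and 30 and 25 in TG with HDM. Foxa3, a forkhead factor, had 0 counts in 5 of the 8 libraries, among them both of WT with PBS, and its other counts were 13 in WT with HDM, 4 in TG with PBS and 6 in TG with HDM. Foxa2, its relative in the same family, stood at 23.2 and 29.4 CPM in WT with PBS, 14.0 and 24.8 in WT with HDM, 27.1 and 25.1 in TG with PBS, and 31.8 and 25.0 in TG with HDM. All 4 groups of Foxa2 lay within 14.0 to 31.8 CPM.

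The proportions among the secreted products changed with HDM (the plot of ratios by library). Per coding kilobase, there were 1.42 and 2.07 counts of Muc5ac for 100 of Muc5b in WT with PBS, 20.0 and 23.6 in WT with HDM, 3.55 and 4.55 in TG with PBS, and 18.5 and 15.0 in TG with HDM. The ratio of Muc4 to Muc5b moved far less, with 16.2 and 19.2 Muc4 counts for 100 of Muc5b in WT with PBS, 16.7 and 19.9 in WT with HDM, 19.4 and 20.2 in TG with PBS, and 14.8 and 14.2 in TG with HDM. For Clca1 against 100 of Muc5ac the values were 395 and 117 in WT with PBS, 2038 and 1673 in WT with HDM, 503 and 418 in TG with PBS, and 1501 and 1770 in TG with HDM. WT and TG overlapped under HDM for this last ratio. Together the 10 members took 0.108% and 0.112% of counts in WT with PBS, 0.503% and 0.473% in WT with HDM, 0.0746% and 0.0822% in TG with PBS, and 0.259% and 0.311% in TG with HDM.

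**Figure D2:**
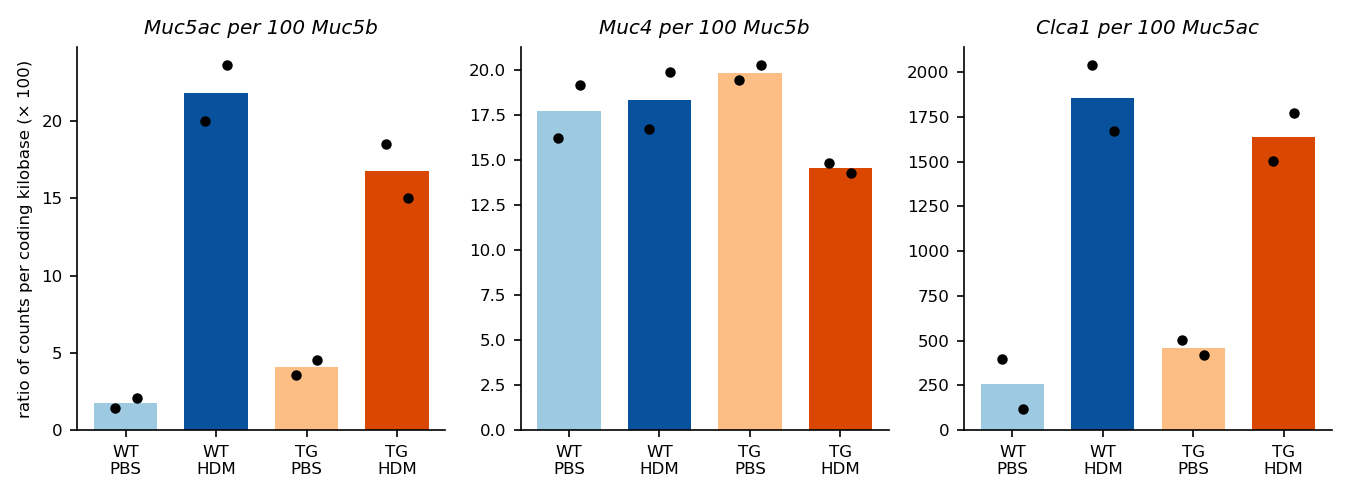
Ratio of counts per coding kilobase between pairs of genes, for Muc5ac against Muc5b, Muc4 against Muc5b and Clca1 against Muc5ac (y axes, linear, times 100). Bars are means of 2 libraries and dots are libraries; the ratios of the outer panels are higher in every HDM library than in every PBS library, while that of the middle panel spans 14.2 to 20.2.

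HDM was compared with PBS within each genotype to ask how the allergen changes mucous gene expression. In WT, 6 members rose: Clca1 by 312-fold, Muc5ac by 38.2-fold, Agr2 by 5.17-fold, Muc4 by 3.18-fold, Muc5b by 3.07-fold and Muc1 by 1.69-fold. Across all 15123 genes tested, 6.74% were called in this comparison, and 4.44% were called higher. In log2 terms, Clca1 changed by 8.29 (SE 0.27, adjusted p = 1.52e-10), Muc5ac by 5.26 (SE 0.22, adjusted p = 2.30e-09) and Muc5b by 1.62 (SE 0.09, adjusted p = 7.41e-08). Muc4 changed by 1.67 (SE 0.16, adjusted p = 1.08e-05), Muc1 by 0.76 (SE 0.16, adjusted p = 0.0117) and Agr2 by 2.37 (SE 0.66, adjusted p = 0.0468). Tff2, at a log2 fold change of 1.99 (adjusted p = 0.118), did not pass, nor did Foxa2 at -0.45 (adjusted p = 0.552). Spdef and Foxa3 had too few counts for the test, so that 8 of the 10 members were tested. The call of Agr2 was lost with an offset for transcript length (adjusted p = 0.0571), with all 8 libraries in the fit (0.123) and without replicate 1 of WT with PBS (0.118). The call of Muc1 was lost in the last 2 of these settings (0.0604 and 0.0612), and Tff2 passed without replicate 1 of WT with HDM (adjusted p = 0.0289). The sizes for Clca1 and Agr2 rested on single PBS libraries: without replicate 1 and replicate 2 of WT with PBS in turn, the log2 fold change was 9.02 and 7.74 for Clca1, and 1.57 and 4.50 for Agr2.

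In TG, 6 members also rose with HDM: Clca1 by 33.5-fold, Tff2 by 33.4-fold, Agr2 by 11.8-fold, Muc5ac by 9.30-fold, Muc5b by 2.28-fold and Muc4 by 1.67-fold. Of all 15086 genes tested, 13.8% were called and 8.43% were called higher. The log2 fold changes were 5.07 for Clca1 (SE 0.22, adjusted p = 1.03e-07), 3.22 for Muc5ac (SE 0.29, adjusted p = 3.64e-05) and 5.06 for Tff2 (SE 0.70, adjusted p = 0.000721). Muc5b changed by 1.19 (SE 0.17, adjusted p = 0.000860), Agr2 by 3.56 (SE 0.91, adjusted p = 0.0234) and Muc4 by 0.74 (SE 0.22, adjusted p = 0.0472). The log2 fold changes of Muc1 (0.34, adjusted p = 0.402), Spdef (2.94, adjusted p = 0.150) and Foxa2 (0.15, adjusted p = 0.834) did not pass. Foxa3 was not tested. In PBS neither TG library reached the low-count limit (10 counts at the median library size) for Tff2 or Spdef, and 1 did for Agr2. Tff2 and Spdef thus entered the test through their HDM counts alone, and Agr2 in part. Such entry favours a higher value with HDM. The calls of Tff2 and Agr2 add no support to the count of members. Muc5b, Muc4 and Agr2 lost their calls without replicate 2 of TG with PBS (adjusted p = 0.0555, 0.253 and 0.0937), and Muc5b and Muc4 without replicate 1 of that group (0.0665 and 0.326). Muc4 also lost its call without replicate 2 of TG with HDM (0.109) and with another scaling of the libraries (0.0562), while Muc1 passed without replicate 1 of TG with HDM (log2 fold change 0.62, adjusted p = 0.0370). The log2 fold change of Agr2 was 7.13 without replicate 1 and 2.63 without replicate 2 of TG with PBS, and that of Tff2 was 5.85 without replicate 1. Over all genes, 2079 were called with all libraries, 404 without replicate 1 and 277 without replicate 2 of TG with PBS, and 1349 with the length offset. With that offset, Muc4 changed by 1.31 (adjusted p = 0.00409), Muc5b by 1.82 and Tff2 by 4.12, and Agr2, at 2.77, no longer passed (adjusted p = 0.0773).

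**Figure D3:**
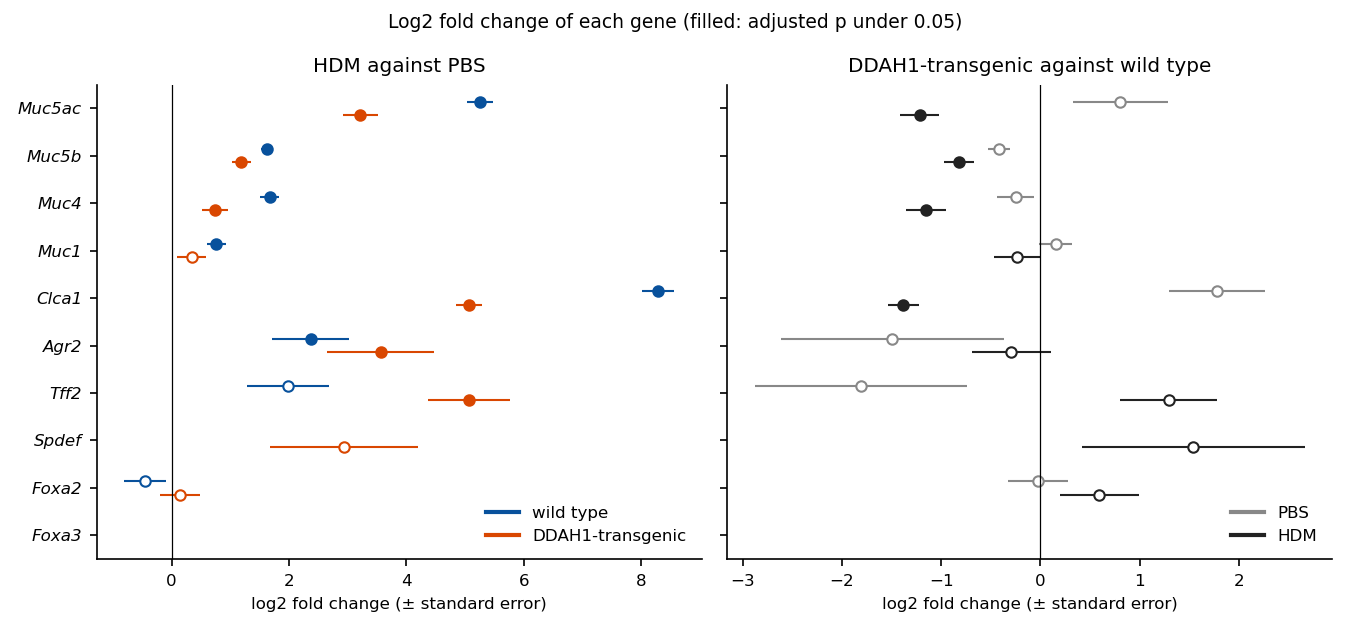
Log2 fold change with its standard error (x axes) for each gene (y axis), for HDM over PBS in WT and TG on the left and for TG over WT in PBS and HDM on the right. Filled dots passed an adjusted p of 0.05 and open dots did not; Clca1 and Muc5ac lie farther to the right in WT than in TG, and in the right panel only HDM dots are filled.

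TG was compared with WT in PBS to ask whether the transgene alone changes these genes. None of the 8 members tested was called by edgeR, where 0.657% of all 14926 genes were called; 2 members had an unadjusted p below 0.05, and DESeq2 called both. These were Clca1, with a log2 fold change of 1.78 (SE 0.48, adjusted p = 0.125), and Muc5b, with -0.42 (SE 0.11, adjusted p = 0.106). With the length offset, Muc5b passed at -0.49 (adjusted p = 0.0341). Muc5ac had a log2 fold change of 0.81 (SE 0.48, adjusted p = 0.627), Agr2 one of -1.50 (SE 1.12, adjusted p = 0.722) and Tff2 one of -1.81 (SE 1.07, adjusted p = 0.627). The values of Muc4, Muc1 and Foxa2 lay between -0.25 and 0.15. Agr2 counts differed widely within both PBS groups, as given above, and its log2 fold change was 0.62 without replicate 2 of WT with PBS. Without replicate 1 of TG with PBS, Agr2 passed at -5.09 (adjusted p = 0.0433), as did Clca1 (adjusted p = 0.0133), and Muc5b passed without replicate 2 (adjusted p = 0.0263).

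TG was compared with WT under HDM to ask whether the transgene changes the mucous response to the allergen. Clca1, Muc5ac, Muc4 and Muc5b were lower in TG, by 2.61-fold, 2.32-fold, 2.23-fold and 1.77-fold. Of the 15191 genes tested 2.44% were called, and 0.599% were called lower. The log2 fold changes were -1.38 for Clca1 (SE 0.16, adjusted p = 0.00144), -1.22 for Muc5ac (SE 0.20, adjusted p = 0.00771), -1.16 for Muc4 (SE 0.20, adjusted p = 0.0112) and -0.82 for Muc5b (SE 0.15, adjusted p = 0.0159). The 5 other members tested did not pass. Tff2 had a log2 fold change of 1.29 (SE 0.49, adjusted p = 0.213), Spdef one of 1.54 (SE 1.12, adjusted p = 0.543), Foxa2 one of 0.59 (SE 0.40, adjusted p = 0.505), Agr2 one of -0.30 (SE 0.40, adjusted p = 0.769) and Muc1 one of -0.23 (SE 0.23, adjusted p = 0.673). Foxa3 was not tested. This comparison shares its WT and TG libraries with the HDM comparisons above, so that the fold changes are not independent of theirs.

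Transcript length moved with this comparison. Over the 14454 tested genes with a known transcript, the log2 fold change of TG over WT under HDM fell with length (Spearman's rho = -0.281 across genes, which are not independent replicates), and the 3 mucins that were called are the longest transcripts among the members. The trend of all genes stood at -0.23 at the length of Muc5ac, -0.29 at that of Muc4, -0.33 at that of Muc5b and -0.03 at that of Clca1 (the plot of fold change against length). At the lengths of the 2 shortest members it stood at 0.64 for Agr2 and 0.75 for Tff2. With a length offset in each library, Clca1 remained lower (-1.28, SE 0.14, adjusted p = 0.00279). Muc5ac then had -0.92 (SE 0.19, adjusted p = 0.0511), Muc4 -0.80 (SE 0.20, adjusted p = 0.103) and Muc5b -0.42 (SE 0.14, adjusted p = 0.204), so that 1 of the 4 calls was kept. Tff2 moved to 0.65 (adjusted p = 0.573) and Agr2 to -0.84 (adjusted p = 0.352). The offset also changed the calls over all genes from 279 higher and 91 lower to 107 higher and 67 lower.

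**Figure D4:**
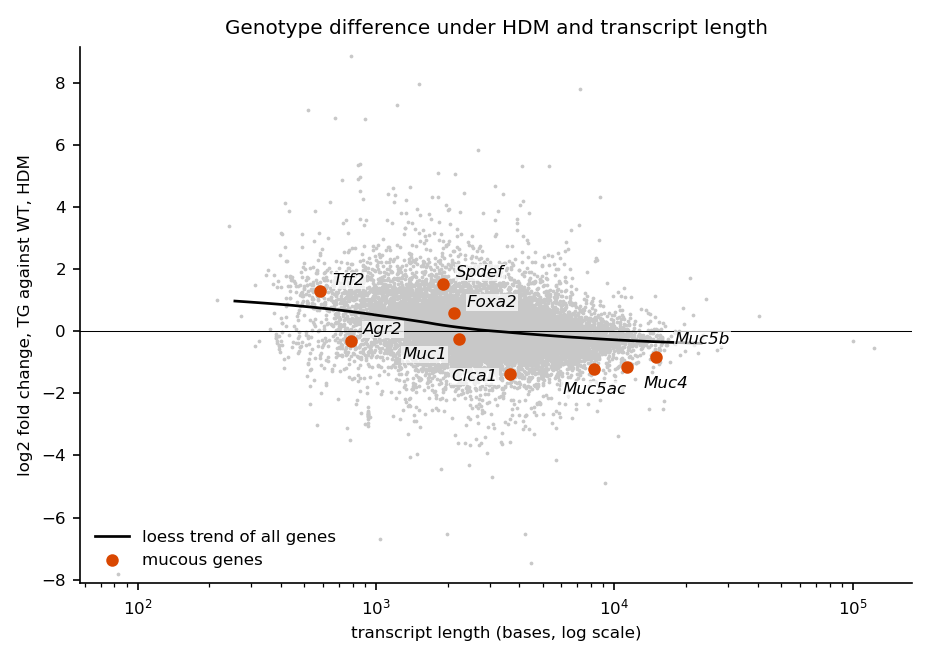
Log2 fold change of TG over WT under HDM (y axis, linear) against transcript length in bases (x axis, log scale) for all tested genes (grey), with the loess trend of all genes (line) and the tested mucous genes (orange). Muc5ac, Muc4, Muc5b, Clca1, Muc1 and Agr2 lie below the trend, while Tff2, Spdef and Foxa2 lie above it.

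**Figure D5:**
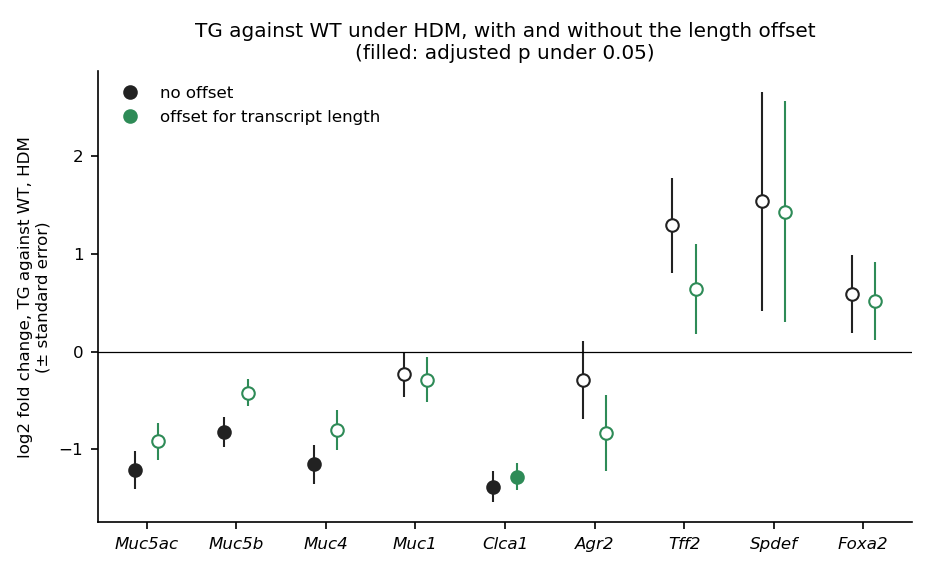
Log2 fold change of TG over WT under HDM with its standard error (y axis) for each tested gene (x axis), without the offset (black) and with the offset for transcript length (green). Filled dots passed an adjusted p of 0.05: 4 without the offset, and Clca1 alone with it.

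Without either library of WT with HDM none of the 4 genes passed by edgeR, with log2 fold changes of -1.35 (adjusted p = 0.205) and -1.08 (adjusted p = 0.237) for Muc5ac, -0.84 (0.323) and -0.81 (0.255) for Muc5b, -1.30 (0.227) and -1.02 (0.279) for Muc4, and -1.38 (0.165) and -1.40 (0.0788) for Clca1, without replicate 1 and replicate 2 in turn. A fit with 1 library in a group assumes that it varies like the other group. Over all genes, 6 and 20 were called in these 2 fits, against 370 with all libraries. Without replicate 2 of TG with HDM, 5 members passed, with Muc1 at -0.59 (adjusted p = 0.0439).

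The difference between the effects of HDM in the 2 genotypes was tested over all 8 libraries as an interaction. Because sex went together with treatment, it cannot be told apart from a difference between the genotypes in the effect of sex. The rise of Clca1 and of Muc5ac with HDM was smaller in TG than in WT, with a log2 difference of -3.23 (SE 0.33, adjusted p = 1.32e-05) for Clca1 and -2.06 (SE 0.33, adjusted p = 0.00193) for Muc5ac. Of the 15868 genes tested, 1.76% were called and 0.706% were called in this direction. Both held with the length offset (-3.11, adjusted p = 1.20e-05, and -1.69, adjusted p = 0.00957) and without any 1 library, although the difference for Clca1 was -3.97 without replicate 1 and -2.71 without replicate 2 of WT with PBS. Muc4 had -0.95 (SE 0.26, adjusted p = 0.0785), Muc5b -0.45 (SE 0.18, adjusted p = 0.254) and Muc1 -0.43 (SE 0.31, adjusted p = 0.567), and with the length offset Muc5b had 0.05. Tff2 had 3.06 (SE 0.93, adjusted p = 0.110), Agr2 1.16 (SE 1.15, adjusted p = 0.699), Spdef 1.06 (SE 1.99, adjusted p = 0.864) and Foxa2 0.57 (SE 0.50, adjusted p = 0.657). Behind this difference, the log2 fold changes of TG over WT given above were 1.78 in PBS and -1.38 under HDM for Clca1, and 0.81 and -1.22 for Muc5ac, of which those in PBS did not pass the test. DESeq2 called 4 members here, adding Muc4 (adjusted p = 0.0147) and Tff2 (adjusted p = 0.0425). Without replicate 2 of TG with HDM edgeR also called Muc4 and Muc5b (adjusted p = 0.0232 and 0.0222).

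Other products of mucous cells were taken from a list of 14 genes. In WT, 6 of the 7 tested rose with HDM (median log2 fold change 3.75, against 0.02 over all genes). In TG, 7 of the 8 tested did (median 3.90, against 0.03). Of all genes tested, 4.44% were called higher in WT and 8.43% in TG. Slc26a4, the anion exchanger pendrin, stood at 5.01 and 7.76 CPM in WT with PBS, 183 and 196 in WT with HDM, 3.90 and 2.74 in TG with PBS, and 48.6 and 55.8 in TG with HDM. Fcgbp, a mucin-binding protein, stood at 2.00 and 4.17, 84.1 and 86.8, 2.40 and 1.58, and 16.9 and 38.3 CPM in the same order. Pigr, the receptor that carries IgA to the lumen, stood at 45.9 and 48.9, 242 and 245, 35.5 and 56.9, and 116 and 122 CPM. Under HDM these 3 of the 8 genes tested were lower in TG than in WT: the log2 fold changes were -1.82 for Slc26a4 (SE 0.22, adjusted p = 0.00157), -1.58 for Fcgbp (SE 0.35, adjusted p = 0.0382) and -0.98 for Pigr (SE 0.19, adjusted p = 0.0208). Of all genes tested in this comparison, 0.599% were called lower. With the length offset, Slc26a4 alone passed (-1.76, adjusted p = 0.00366). The other genes called with HDM were Bpifb1, Itln1 and Gp2 in both genotypes and Dmbt1 in TG. In PBS, Itln1 in WT and Itln1, Gp2 and Dmbt1 in TG reached the low-count limit in neither library, and Gp2 in WT in 1. They were thus tested through their HDM counts, wholly or in part, which favours a rise. The counts and medians above include these genes, whose calls add no support. The call of Itln1 in WT was lost with the length offset (adjusted p = 0.0618). Of these, Itln1, a lectin, had 4 and 3 counts in WT with PBS, 29 and 63 in WT with HDM, 0 and 0 in TG with PBS, and 37 and 129 in TG with HDM. Tff3, a goblet cell peptide, had 0 counts in all libraries, and Retnlb had at most 1.

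Among the other mucin genes, Muc20 was called higher with HDM in WT (log2 fold change 1.50, adjusted p = 0.0128), and no other of the 3 tested was. It stood at 10.6 and 15.0 CPM in WT with PBS, 35.3 and 37.5 in WT with HDM, 22.3 and 12.6 in TG with PBS, and 6.11 and 17.4 in TG with HDM, and shares sequence with the Muc4 locus as given above. Muc6, a gastric mucin, lay between 3.33 and 8.51 CPM in all libraries.

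Of the 24 genes of mucin folding and O-glycosylation 20 were tested, and 3 rose with HDM in WT: Galnt7, a GalNAc transferase, B3gnt7, and Xbp1, a factor of the unfolded protein response (log2 fold changes 1.53, 1.98 and 0.57, with adjusted p = 0.0166, 0.0240 and 0.0375). The 2 called in TG were Xbp1 (0.69, adjusted p = 0.0351) and Ern2, the epithelial endoplasmic reticulum stress sensor (adjusted p = 0.0434). These 2 of 20 stand beside 8.43% of all genes called higher in TG, and the 3 of 20 beside 4.44% in WT. Ern2 had 0 counts in both TG libraries with PBS and 25 and 13 counts with HDM, and was tested through its HDM counts alone. Neither was called in TG with the length offset (adjusted p = 0.0811 for Xbp1 and 0.0597 for Ern2), and Gcnt1, a glycosyltransferase, was (1.55, adjusted p = 0.0447). Creb3l1, an endoplasmic reticulum transcription factor, was lower in TG than in WT under HDM (-1.84, adjusted p = 0.0186). Medians over the tested genes were 0.33 in WT and 0.54 in TG with HDM.

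Among the 16 genes of the upstream signals, Il13 was near the floor, with 1 and 0 counts in WT with PBS, 28 and 9 in WT with HDM, 0 and 0 in TG with PBS, and 0 and 2 in TG with HDM, and was not tested. Il33, an epithelial alarmin, stood at 115 and 145 CPM in WT with PBS, 595 and 526 in WT with HDM, 153 and 144 in TG with PBS, and 261 and 251 in TG with HDM. It rose with HDM in WT by 2.10 (adjusted p = 5.58e-07) and in TG by 0.82 (adjusted p = 0.0155), was lower in TG than in WT under HDM (-1.09, adjusted p = 0.00759), and passed the interaction (-1.31, adjusted p = 0.00435). The only other genes of this list called with HDM were Il2rg, the shared cytokine receptor chain, higher in both genotypes, and Egfr, lower in TG (-1.03, adjusted p = 0.0376). With the length offset, Il33 was still called in TG (0.79, adjusted p = 0.0215), while Il2rg (0.74, adjusted p = 0.114) and Egfr (-0.49, adjusted p = 0.338) were not. Il4ra and Stat6, through which IL-13 acts, did not pass in any comparison.

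Of 15 other airway transcription factors, Sox9 was called with HDM in WT (3 and 1 counts in PBS, 262 and 40 with HDM), while Notch2 and Klf4 fell (-0.67 and -0.72, adjusted p = 0.0207 and 0.0187). Sox9 entered the test through its HDM counts alone, and those differed between 2 libraries of 1 pool (23.4 and 4.02 CPM). Klf4 was still called in WT with the length offset (-0.71, adjusted p = 0.0164) and Notch2 was not (-0.54, adjusted p = 0.0545). In TG, Notch1, Notch2, Notch3 and Klf4 fell with HDM (-0.92, -0.81, -1.73 and -0.73), of which only Notch3 passed with the length offset (-1.26, adjusted p = 0.0268). Beside these falls, 348 of all 15123 genes tested were called lower in WT and 807 of 15086 in TG. Notch3 stood at 57.2 and 54.5 CPM in WT with PBS, 45.9 and 64.4 in WT with HDM, 68.3 and 73.9 in TG with PBS, and 25.2 and 17.0 in TG with HDM, and passed the interaction (-1.74, adjusted p = 0.0260; with the offset -1.38, adjusted p = 0.103). In PBS none of the 53 tested genes of these 5 lists was called between genotypes by edgeR, 6 had an unadjusted p below 0.05 and DESeq2 called none.

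Club cells are the secretory cells of mouse airways from which goblet cells can arise. Of their 6 markers, 4 fell with HDM in WT, among them Scgb1a1 (-1.46, adjusted p = 2.85e-07) and Cyp2f2 (-2.01, adjusted p = 1.88e-08). In TG 3 fell, and Scgb3a2 and Scgb3a1 were called higher. Over all genes, 348 of 15123 were called lower in WT. In TG, 807 of 15086 were called lower and 8.43% higher. With the length offset Scgb3a2 and Scgb3a1 lost their calls in TG (-0.23, adjusted p = 0.511, and -0.16, adjusted p = 0.681), and Scgb3a1 was called lower in WT (-0.68, adjusted p = 0.0356). The summed level of these 6 genes was 30303 to 37804 CPM in WT with PBS, 11261 to 13182 in WT with HDM, 36711 to 55056 in TG with PBS, and 10768 to 14495 in TG with HDM. Under HDM, Scgb3a2 was higher in TG than in WT (48.2 and 61.6 CPM in WT, 426 and 380 in TG, log2 fold change 2.92, adjusted p = 0.000132), and so was Scgb3a1 (0.98, adjusted p = 0.0429). With the length offset Scgb3a2 was still higher (2.27, adjusted p = 0.00101), Scgb3a1 was not called (0.28, adjusted p = 0.576) and Scgb1a1 was called lower (-0.74, adjusted p = 0.00920). The part of club cells in the results for the mucous genes was not tested.

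Markers of other tissues were read for signs of mixed material. The 7 gastric markers summed to 0.268 to 2.39 CPM per library, with Gkn1, Gkn2 and Atp4b at 0 in all, and of the 8 gland and upper airway genes Lpo, Dcpp1, Dcpp2, Dcpp3 and Smr3a were at 0 in all. The gland list as a whole was higher in WT with PBS, at 159 to 167 CPM, than in the other libraries, at 41.5 to 97.1. Most of it was Bpifa1, a secreted protein of the upper airway, at 144 and 142 CPM in WT with PBS, 19.2 and 37.2 in WT with HDM, 50.9 and 57.9 in TG with PBS, and 61.7 and 59.9 in TG with HDM. Bpifa1 was called lower with HDM in WT (-2.35, adjusted p = 5.56e-05) and lower in TG than in WT with PBS (-1.41, adjusted p = 0.000243), and passed the interaction (2.51, adjusted p = 0.00118). None of the 9 ciliated cell markers was called by edgeR with HDM in either genotype (2 in WT and 1 in TG had an unadjusted p below 0.05, and DESeq2 called 1 and 0). The 7 skeletal muscle genes summed to 41.4 to 45.3 CPM in WT with PBS and 192 to 211 in WT with HDM. In TG they summed to 223 to 224 with PBS and 114 to 137 with HDM. With HDM in WT, 7 of 7 were called higher, beside 4.44% of all genes tested. In WT with PBS, however, Myh1, Myh2 and Tnnt3 reached the low-count limit in neither library, and Myh4 and Mylpf in 1. These were tested through their HDM counts, wholly or in part, which favours a rise. The 6 thymocyte genes summed to 68.4 to 68.5 CPM in WT with PBS and 11.6 to 19.8 in the other libraries. The 6 adipocyte genes summed to 67.5 and 78.8 CPM in WT with PBS and 31.5 and 36.5 in WT with HDM. In TG they summed to 23.2 and 31.4 with PBS, and to 18.6 and 74.4 in the 2 libraries with HDM. The part of these tissues in the results for the mucous genes was not tested. Counts of the other marker lists in the genotype comparison under HDM were 0 called of 4 basal cell genes, 1 of 6 alveolar type 2 genes, 0 of 5 alveolar type 1 genes, 0 of 4 eosinophil genes and 0 of 5 adipocyte genes by edgeR, with 0, 3, 2, 0 and 1 at an unadjusted p below 0.05 and 0, 3, 1, 0 and 0 called by DESeq2.

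The 5 genes whose log2 CPM followed Muc5ac most closely over the 8 libraries, out of 15762 genes, were Atp6v0d2 (Pearson's r = 0.994), Chil3 (0.993), Chil4 (0.988), Myo5a (0.985) and Chil1 (0.984). Chil3, Chil4 and Chil1 encode chitinase-like proteins. Chil3 stood at 381 and 374 CPM in WT with PBS, 8932 and 9248 in WT with HDM, 510 and 507 in TG with PBS, and 3253 and 4374 in TG with HDM. These correlations are descriptions across 4 pools of RNA, in which the treatment sets most of the spread. Chil3 and Chil4 are related genes, and how far their reads can be told apart was not tested.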

How the data were processed

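Lung RNA of 4 groups was pooled within each group and sequenced as 2 libraries per pool, and groups were read from the sample labels. The authors used an amplified cDNA and single reads of 50 cycles, aligned them with TopHat to mm10 (GRCm38; the submitters' processing notes also name bcl2fastq and CASAVA 1.8), summarised reads over each gene's coding region with ShortRead and custom R programs, and deposited raw counts per gene, with no normalization; they tested them with DESeq. The versions of TopHat and of the gene annotation are not given in the sources used here. Genes were matched by Entrez identifier to RefSeq GRCm38.p6 (23372 of 23469), and transcript lengths came from GENCODE M21 (21145 genes; the APPRIS principal transcript, then a basic one, then the longest). RefSeq promoter windows were searched for motifs.

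Each comparison was tested with edgeR 4.0.16 (R 4.3.3; quasi-likelihood test, TMM, filterByExpr, count minimum 10), fitted to the 4 libraries compared, and the interaction was fitted to all 8. The Benjamini-Hochberg adjustment covered every gene tested in a comparison, and 0.05 was the threshold. CPM are scaled by TMM over all 8 libraries. The SE is the size of the log2 fold change divided by the root of the F statistic. The length offset is a loess fit (span 0.5) of log2 CPM on log2 length in each library; log2 CPM had a prior count of 2. The analysis was tested on simulated data. Alternatives were RLE scaling, DESeq2 1.42.0, no low-count filter, exclusion of ribosomal and haemoglobin genes, the replicate number as a block, offsets for length and GC content, all 8 libraries, a log2 fold change of at least 1, and each library left out in turn; an offset from the longest transcript was added after seeing the data.

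The members and gene lists were chosen with earlier results of these data known. Genes named beyond the members were at most 4 per list and comparison with the smallest adjusted p past the threshold, markers at 0, Ddah1, Xist and Ddx3y as checks, and the 5 genes with the highest correlation with Muc5ac; Il13, Il4ra, Stat6, Muc6, Tff3 and Retnlb were named after their values were seen. Replicate libraries differed by more than counting noise (13.1 to 28.2 chi-square per gene), so that none was taken as a copy of another. The detection floor of 3 counts covers counting error only.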

Additional observations from a re-analysis of the deposited data

Results flagged for a closer look

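Among the members, the 5 lists of mucous pathway genes and the club cell and gland markers, 7 genes passed the interaction of genotype and HDM. It was tested in edgeR over all 8 libraries with Benjamini-Hochberg adjustment over all genes. Those tested were 9 members, 60 genes of the 5 lists, 6 club cell markers and 2 gland markers. Of all 15868 genes tested, 1.76% were called. The lists were chosen with earlier results of these data known. Effects of HDM and of sex cannot be told apart in this term. Among the mucous genes, the log2 difference of the genotype effects, HDM minus PBS, was -2.06 for Muc5ac (adjusted p = 0.00193) and -3.23 for Clca1 (adjusted p = 1.32e-05). It was -1.31 for Il33 (adjusted p = 0.00435) and -1.74 for Notch3 (adjusted p = 0.0260), of which Notch3 lost its call with the length offset. Of the markers, it was 2.68 for Scgb3a2 (adjusted p = 9.65e-06), 1.18 for Scgb3a1 (adjusted p = 0.0417) and 2.51 for Bpifa1 (adjusted p = 0.00118), of which Scgb3a1 lost its call with the length offset. Of the marker lists of other tissues, 6 of 7 skeletal muscle genes, 1 of 6 thymocyte genes and 1 of 6 alveolar type 2 genes were also called. The groups hold 2 libraries each, so that no library could be tested as an outlier.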

How the results depend on the processing

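The replicate numbers did not pair the libraries (correlations of deviations from the group means between -0.02 and 0.03), and with the replicate number as a block the counts of members called were 6 and 6 for HDM against PBS in WT and TG, 0 and 4 for TG against WT in PBS and HDM, and 3 for the interaction. Leaving out 1 library at a time gave 4 to 7 members for HDM in WT, 3 to 7 in TG (3 without replicate 2 of TG with PBS), 0 to 2 for the genotypes in PBS, 0 to 5 under HDM and 2 to 4 for the interaction. In PBS, DESeq2, no low-count filter and the length offset with the block gave 2 members each, and both length offsets and all 8 libraries gave 1. Under HDM both length offsets gave 1, the length offset with the block 4, and DESeq2 4 for the interaction. The cause was not tested.

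Signs turned for members that had not passed. With HDM in TG, Foxa2 had a log2 fold change of -0.056 with the longest transcript, and without 1 library in turn Foxa2 ranged from -0.065 to 0.31 and Muc1 from -0.029 to 0.62. Between genotypes in PBS, Foxa2 had 0.0044 with the length offset and 0.013 with that and the block, and without 1 library Foxa2 ranged from -0.17 to 0.15, Agr2 from -5.09 to 0.62 and Muc1 from -0.090 to 0.38. Under HDM, Muc1 ranged from -0.59 to 0.044. In the interaction, Muc5b had 0.051 with the length offset, 0.049 with that and the block and 0.025 with the longest transcript, and without 1 library Agr2 ranged from -0.97 to 4.77 and Spdef from -0.41 to 1.73.

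Counts over all genes also moved. Under HDM the genotype comparison called 370 genes with edgeR, 922 with DESeq2, 1055 with no low-count filter and 174 with the length offset. The 2 libraries per pool and the low counts of Agr2, Tff2, Spdef and Foxa3 limit what could be detected.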
